A study of Mus musculus with 3 samples.

Results

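Enzymes of glycolysis, of the pentose phosphate pathway and of glycogen turnover were followed in RNA of DN1 cells, the earliest stage of T cell development in the thymus. The members were 40 genes picked for their known roles, with earlier results of these data known. A gene counted as found when its symbol stood alone in the gene column of the expression table. This held for 39 of the 40 among 23348 genes. The other one, Eno1, shared a joint entry with Gm5506, and that entry is described beside the 39 without entering their counts.

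Cells were sorted as lineage-negative, CD44-positive and CD25-negative from thymi of mice aged 19 days on a 129sv/C3H background. The gl/gl library came from 3 pooled grey-lethal mice, whose genotype is Ostm1-/-, so they lack a partner of a lysosomal chloride transporter and have osteopetrosis. The CD2-Ostm1 gl/gl library came from 3 pooled mice of that genotype which also carried an Ostm1 transgene named for CD2, a gene of T cells. The wild type library came from 2 pooled mice. Each genotype was represented by 1 library. Without replicates the differences below carry neither an error nor a p-value, and differences between mice cannot be told apart from differences between genotypes.

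Ostm1 levels were 0 (gl/gl), 5.35 (CD2-Ostm1 gl/gl) and 19.6 FPKM (wild type), a unit that scales fragments by transcript length and library size. Cd44 had 109, 64.7 and 66.4 FPKM in gl/gl, CD2-Ostm1 gl/gl and wild type, and Il2ra, which encodes CD25, had 11.7 FPKM in gl/gl, 4.03 FPKM in CD2-Ostm1 gl/gl and 5.94 FPKM in wild type. Kit, which marks the earliest thymic progenitors, had 15.3 FPKM in gl/gl, 102 FPKM in CD2-Ostm1 gl/gl and 101 FPKM in wild type. Cd3e, a T cell receptor subunit that lineage cocktails usually target, had 107 FPKM in gl/gl, 57.7 FPKM in CD2-Ostm1 gl/gl and 77.3 FPKM in wild type. Of 16 granulocyte markers found, 14 were at least 2-fold higher and 2 lower in gl/gl than in wild type, with summed levels of 29241 FPKM in gl/gl, 436 FPKM in CD2-Ostm1 gl/gl and 405 FPKM in wild type. Over all genes that reached 1 FPKM in any library, 8.16% were higher and 6.15% lower. Sex-linked transcripts set gl/gl apart as well, with Xist at 0.184 FPKM in gl/gl, 234.9 FPKM in CD2-Ostm1 gl/gl and 116 FPKM in wild type, and 4 of 5 such genes higher and 1 lower in gl/gl than in wild type, so the sex of the pooled mice and the genotype cannot be told apart. From the spacing of the lowest values, a 2 kb transcript at 5 FPKM was worth about 260.4, 251 and 434 fragments in gl/gl, CD2-Ostm1 gl/gl and wild type, so counting error was small for all but the lowest members.

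Glycolysis splits glucose into pyruvate and yields ATP, and lactate dehydrogenase turns pyruvate into lactate when it does not enter mitochondria. The pentose phosphate pathway branches off at glucose-6-phosphate. Its oxidative arm makes NADPH, which phagocytes use to form superoxide, and its non-oxidative arm makes ribose for nucleotides. Glycogen is built by glycogen synthase and the branching enzyme and broken down by glycogen phosphorylase, and neutrophils are known to store it. Several steps are served by isoforms from separate genes with different regulation and tissue range.

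The stretches upstream of 6 members are shown here because 4 of them (Hk3, Pygl, G6pdx and Pgd) were among the members most different in gl/gl and the other 2 (Hk2 and Pygb) serve the same steps as Hk3 and Pygl. Each run gives the 250 bases before the start site on the gene's strand, from RefSeq on GRCm38.p6. A gene can have several starts, and for Hk3 the RefSeq gene reaches further upstream, so part of its stretch lies inside the gene. Capitals mark ACGTG or its reverse complement CACGT, the core bound by hypoxia-inducible factors.
Hk3 (chr13:55021386-55021635, minus strand): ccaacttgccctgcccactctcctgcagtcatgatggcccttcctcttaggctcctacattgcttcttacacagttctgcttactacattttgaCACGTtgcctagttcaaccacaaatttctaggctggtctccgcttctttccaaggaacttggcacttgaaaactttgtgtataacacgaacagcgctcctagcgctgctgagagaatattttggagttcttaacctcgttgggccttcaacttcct
Hk2 (chr6:82774455-82774704, minus strand): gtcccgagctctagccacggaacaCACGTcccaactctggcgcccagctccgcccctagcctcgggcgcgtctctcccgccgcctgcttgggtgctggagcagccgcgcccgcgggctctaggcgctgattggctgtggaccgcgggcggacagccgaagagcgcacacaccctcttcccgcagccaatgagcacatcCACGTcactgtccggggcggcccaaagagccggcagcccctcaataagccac
Pygl (chr12:70227684-70227933, minus strand): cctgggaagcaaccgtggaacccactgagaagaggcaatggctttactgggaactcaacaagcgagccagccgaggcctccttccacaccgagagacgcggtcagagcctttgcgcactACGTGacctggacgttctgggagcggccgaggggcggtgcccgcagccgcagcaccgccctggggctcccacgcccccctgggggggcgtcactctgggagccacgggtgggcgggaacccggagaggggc
Pygb (chr2:150786546-150786795, plus strand): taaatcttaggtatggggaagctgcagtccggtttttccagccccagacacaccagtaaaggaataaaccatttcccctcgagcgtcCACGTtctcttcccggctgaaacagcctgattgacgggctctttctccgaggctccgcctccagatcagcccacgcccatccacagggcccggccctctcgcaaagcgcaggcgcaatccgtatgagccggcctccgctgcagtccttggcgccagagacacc
G6pdx (chrX:74428881-74429130, minus strand): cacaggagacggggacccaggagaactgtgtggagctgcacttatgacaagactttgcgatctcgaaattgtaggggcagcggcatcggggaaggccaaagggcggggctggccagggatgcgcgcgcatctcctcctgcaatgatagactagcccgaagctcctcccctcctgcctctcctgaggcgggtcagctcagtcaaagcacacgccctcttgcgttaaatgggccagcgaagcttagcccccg
Pgd (chr4:149166706-149166955, minus strand): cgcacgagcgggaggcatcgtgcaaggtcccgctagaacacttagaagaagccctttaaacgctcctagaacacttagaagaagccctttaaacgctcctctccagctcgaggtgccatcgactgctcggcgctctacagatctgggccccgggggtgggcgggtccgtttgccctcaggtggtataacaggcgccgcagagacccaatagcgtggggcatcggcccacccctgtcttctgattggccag

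All 40 members, Eno1 among them, had such a stretch, with the table's Pgm2 matched by position to the gene RefSeq calls Pgm1. On either strand, ACGTG was found in 14 of the 40 and in 16.6% of 27025 promoters of all genes. It stood in both isoforms of each pair shown, in Hk3 and Hk2 and in Pygl and Pygb. Among the 6 members that were at least 2-fold higher in gl/gl, 2 held it. The PU.1 core GAGGAA was found in 8 of the 40 (23.1% of all promoters), and in Hk3 alone among those 6. TTGCNNAA, a form of the C/EBP motif, was found in 5 of the 40 (9.55%), CACGTG, which contains ACGTG, in 4 (6.05%), and TGACNNNGC, an antioxidant response core, in 1 (10.1%). That single match lay 57 bases before the start of G6pdx. These are matches of letters only, and a role of any motif was not tested.

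The study set gl/gl beside wild type for the loss of Ostm1. Most enzymes of the main glycolytic route lay within 2-fold in gl/gl, whereas single isoforms and branch enzymes stood out: Hk3 (hexokinase), Pygl (glycogen phosphorylase), G6pdx and Pgd (oxidative pentose phosphate arm), Pfkfb4 (control of phosphofructokinase) and Pdk4 (control of pyruvate dehydrogenase) were higher, and Pfkm was lower. On the scale of log2(FPKM + 1), with a difference of at least 2-fold as the threshold, 6 of 39 members were higher against 8.16% of all 12849 measured genes, and 1 of 39 was lower against 6.15%. Measured genes are those that reached 1 FPKM in any library, which all 39 members did. Hk3 and Pdk4 reached it only in gl/gl and Aldoc only in wild type, so these had to differ. The median difference was -0.03 over the members and -0.03 over all measured genes. At 1.5-fold, 7 members were higher and 7 lower, against 16.3% and 16.1% of all measured genes.

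**Figure D1:**
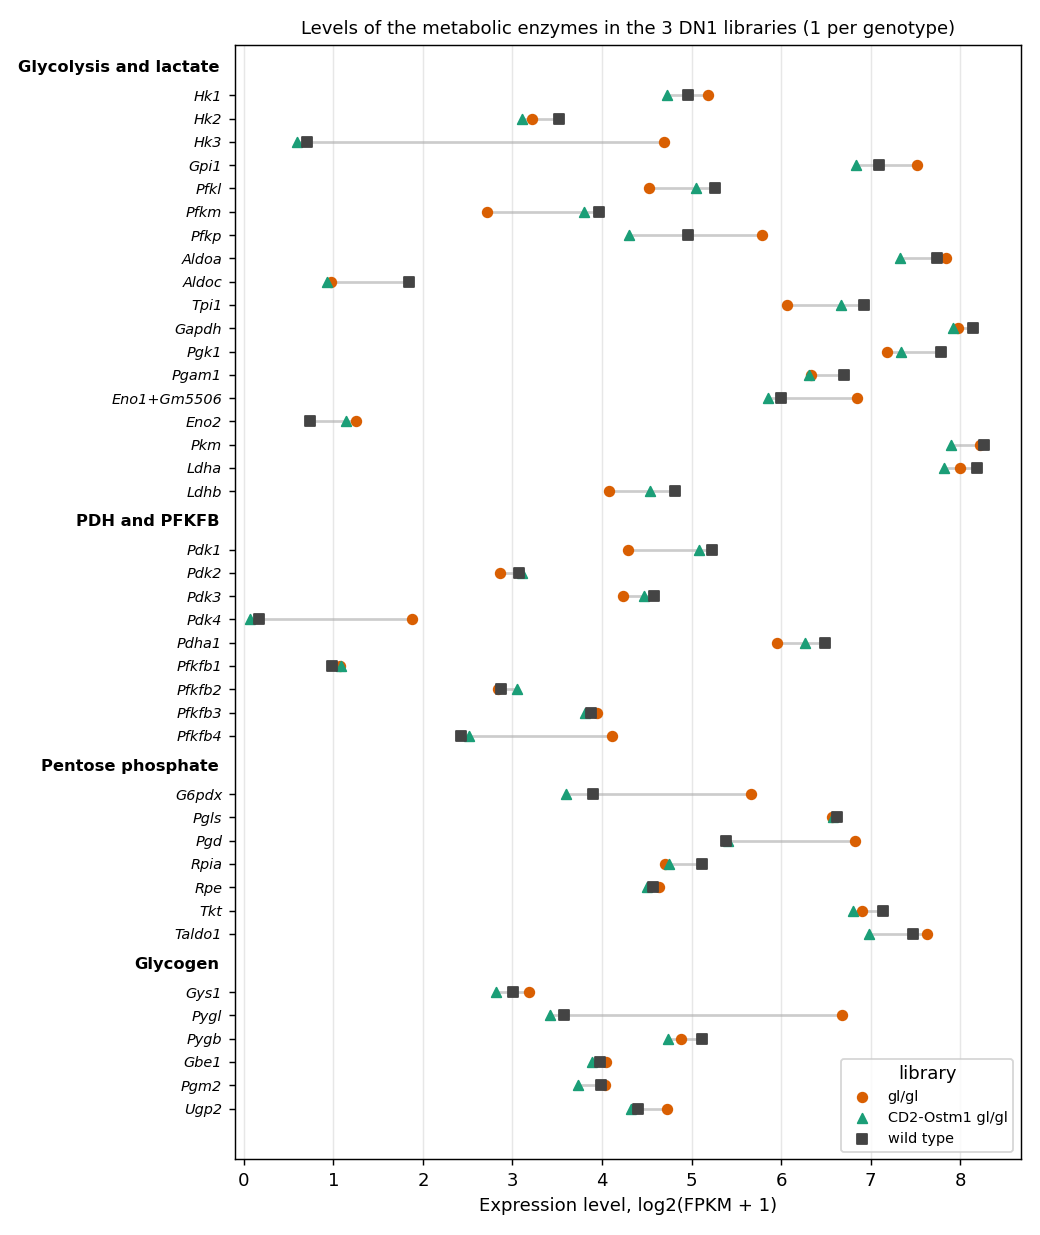
Level of each enzyme transcript in gl/gl (circles), CD2-Ostm1 gl/gl (triangles) and wild type (squares), as log2(FPKM + 1), with 1 library per genotype. The gl/gl circles of Hk3, Pdk4, Pfkfb4, G6pdx, Pgd and Pygl lie far to the right of the other libraries, for example for Hk3 at 24.7 FPKM in gl/gl, 0.507 FPKM in CD2-Ostm1 gl/gl and 0.628 FPKM in wild type.

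The first step, the phosphorylation of glucose, held the member with the largest log2 difference. Hk3, a hexokinase typical of myeloid cells, had 24.7 FPKM in gl/gl, 0.507 FPKM in CD2-Ostm1 gl/gl and 0.628 FPKM in wild type, a difference of 3.98 (log2) between gl/gl and wild type. By a rough estimate these levels stood for 2161 fragments in gl/gl, 43 in CD2-Ostm1 gl/gl and 91 in wild type. Hk1, the widely expressed isoform, had 35.2 FPKM in gl/gl, 25.5 FPKM in CD2-Ostm1 gl/gl and 30.1 FPKM in wild type. Hk2, the isoform of muscle and of activated cells, had 8.29 FPKM in gl/gl, 7.60 FPKM in CD2-Ostm1 gl/gl and 10.5 FPKM in wild type. Hk3 thus made up 36.3% of the hexokinase FPKM in gl/gl, 1.51% in CD2-Ostm1 gl/gl and 1.52% in wild type, and the sum of the 3 isoforms was 68.2 FPKM in gl/gl, 33.6 FPKM in CD2-Ostm1 gl/gl and 41.2 FPKM in wild type. The table gives the Hk3 entry a position on chromosome 13 (54949432 to 55021385, mm10) that it shares with Unc5a, a netrin receptor gene with 1.30 FPKM in gl/gl, 0.0884 FPKM in CD2-Ostm1 gl/gl and 0.282 FPKM in wild type, so the level of Unc5a was far below that of Hk3 in gl/gl.

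Phosphofructokinase, the committed step of glycolysis, had nearly the same sum in gl/gl and wild type but a different make-up. Pfkp, the platelet-type subunit, had 54.0 FPKM in gl/gl, 18.7 FPKM in CD2-Ostm1 gl/gl and 30.0 FPKM in wild type. Pfkl, the liver-type subunit, had 22.1 FPKM in gl/gl, 32.0 FPKM in CD2-Ostm1 gl/gl and 37.4 FPKM in wild type. Pfkm, the muscle-type subunit, had 5.58 FPKM in gl/gl, 12.9 FPKM in CD2-Ostm1 gl/gl and 14.6 FPKM in wild type. Its entry lies on chromosome 15 (98038744 to 98132447, mm10). Pfkm was the 1 member at least 2-fold lower in gl/gl than in wild type (-1.24, and -0.89 with a pseudocount of 5), while Pfkp (0.83) and Pfkl (-0.74) stayed under 2-fold. The 3 genes together had 81.7 FPKM in gl/gl, 63.6 FPKM in CD2-Ostm1 gl/gl and 82.0 FPKM in wild type, of which Pfkp gave 66.2% in gl/gl, 29.4% in CD2-Ostm1 gl/gl and 36.6% in wild type. The entry positions of Pfkm and Pfkp overlap other coding genes. Senp1, beside Pfkm, had 13.5 FPKM in gl/gl, 16.0 FPKM in CD2-Ostm1 gl/gl and 15.7 FPKM in wild type. Pitrm1, beside Pfkp, had 10.2 FPKM in gl/gl, 22.5 FPKM in CD2-Ostm1 gl/gl and 24.5 FPKM in wild type, lower in gl/gl where Pfkp was higher.

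The PFKFB enzymes make and remove fructose-2,6-bisphosphate, the activator of phosphofructokinase. Pfkfb4 had 16.3 FPKM in gl/gl, 4.73 FPKM in CD2-Ostm1 gl/gl and 4.39 FPKM in wild type, a difference of 1.68 between gl/gl and wild type. The entry lies on chromosome 9 (108991902 to 109032225, mm10). Its share of the PFKFB sum was 43.0% in gl/gl, 18.1% in CD2-Ostm1 gl/gl and 17.3% in wild type. Pfkfb3, the leading isoform outside gl/gl, had 14.3 FPKM in gl/gl, 13.0 FPKM in CD2-Ostm1 gl/gl and 13.7 FPKM in wild type. Pfkfb2 had 6.17 FPKM in gl/gl, 7.31 FPKM in CD2-Ostm1 gl/gl and 6.30 FPKM in wild type. Pfkfb1 lay near 1 FPKM throughout (1.11 FPKM in gl/gl, 1.12 FPKM in CD2-Ostm1 gl/gl and 0.986 FPKM in wild type).

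In the middle and lower part of glycolysis the transcripts were abundant and differed less. Gpi1, the isomerase that follows hexokinase, had 182 FPKM in gl/gl, 114 FPKM in CD2-Ostm1 gl/gl and 135 FPKM in wild type. Aldoa, the main aldolase, had 229 FPKM in gl/gl, 159.6 FPKM in CD2-Ostm1 gl/gl and 213 FPKM in wild type and gave at least 98.8% of the aldolase sum in every library, as Aldoc had only 0.967 FPKM in gl/gl, 0.911 FPKM in CD2-Ostm1 gl/gl and 2.60 FPKM in wild type. Tpi1, which interconverts the triose phosphates, had 66.2 FPKM in gl/gl, 101 FPKM in CD2-Ostm1 gl/gl and 120.1 FPKM in wild type, lowest in gl/gl (-0.85 against wild type). Tpi1 was one of several abundant members that were lower in gl/gl than in wild type without reaching 2-fold. Gapdh, often used as a reference gene, had 249.9 FPKM in gl/gl, 242 FPKM in CD2-Ostm1 gl/gl and 282 FPKM in wild type, a difference of -0.17 between gl/gl and wild type. Pgk1 and Pgam1, the kinase and mutase of phosphoglycerate, had 144 and 79.4 FPKM in gl/gl, 161 and 78.5 FPKM in CD2-Ostm1 gl/gl, and 219 and 103 FPKM in wild type.

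The joint entry of Eno1 and Gm5506, which stands for the main enolase, had 114 FPKM in gl/gl, 56.9 FPKM in CD2-Ostm1 gl/gl and 63.1 FPKM in wild type, a difference of 0.85 between gl/gl and wild type. Reads of both genes cannot be separated there. Eno2, the neuronal enolase, had 1.39 FPKM in gl/gl, 1.20 FPKM in CD2-Ostm1 gl/gl and 0.676 FPKM in wild type. Eno3, an enolase outside the members, was higher than Eno2, with 18.7 FPKM in gl/gl, 15.4 FPKM in CD2-Ostm1 gl/gl and 13.5 FPKM in wild type. Pkm, pyruvate kinase, had 298 FPKM in gl/gl, 237 FPKM in CD2-Ostm1 gl/gl and 306 FPKM in wild type and was the highest member in gl/gl and in wild type. Ldha, the main lactate dehydrogenase subunit, had 254 FPKM in gl/gl, 225 FPKM in CD2-Ostm1 gl/gl and 290.0 FPKM in wild type. Ldhb had 15.9 FPKM in gl/gl, 22.2 FPKM in CD2-Ostm1 gl/gl and 27.1 FPKM in wild type. Ldha gave 94.1% in gl/gl, 91.0% in CD2-Ostm1 gl/gl and 91.5% in wild type of their sum, so Ldha led in each library by a wide margin. Several of these abundant glycolytic genes, Gapdh among them, have processed pseudogenes in the mouse genome, and how reads shared with such copies were assigned is not given in the sources used here.

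**Figure D2:**
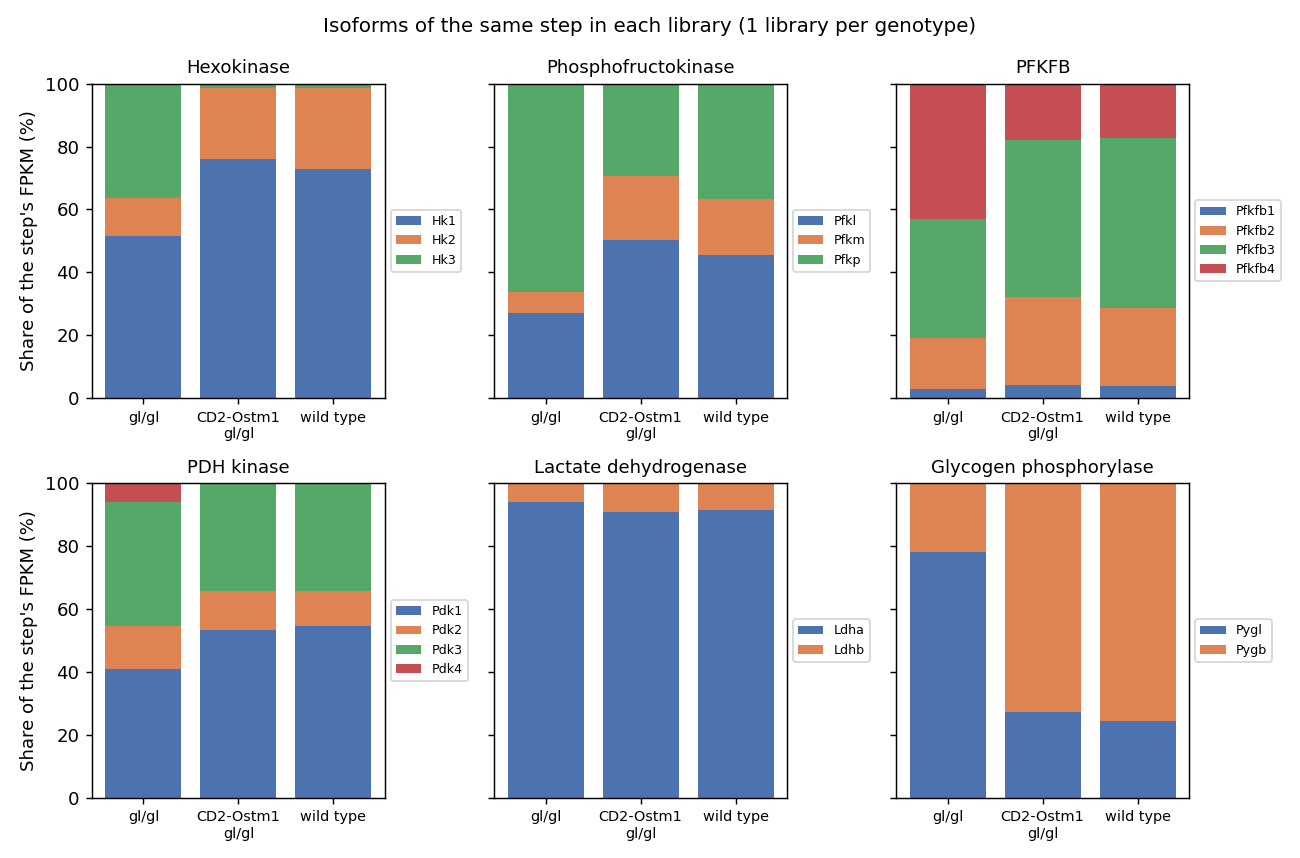
Share of each member isoform in the summed FPKM of its step's members, in percent, for gl/gl, CD2-Ostm1 gl/gl and wild type (1 library each). Isoforms outside the members, such as Pygm, are left out of the sums. The make-up of the gl/gl bar differs for hexokinase, phosphofructokinase, PFKFB and glycogen phosphorylase, where Pygl reaches 78.1% in gl/gl, 27.4% in CD2-Ostm1 gl/gl and 24.6% in wild type, and is close to the others for lactate dehydrogenase.

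Pyruvate dehydrogenase, which passes pyruvate to the citrate cycle, is switched off by the PDK kinases. Pdk4, a PDK known for its induction in fasting and by glucocorticoids, had 2.68 FPKM in gl/gl, 0.0476 FPKM in CD2-Ostm1 gl/gl and 0.125 FPKM in wild type, which by a rough estimate stood for 254 fragments in gl/gl, 4 in CD2-Ostm1 gl/gl and 20 in wild type. The difference was 1.71 between gl/gl and wild type and shrank to 0.58 with a pseudocount of 5. Pdk1, a target of hypoxia-inducible factors, was lower in gl/gl with 18.5 FPKM in gl/gl, 33.0 FPKM in CD2-Ostm1 gl/gl and 36.5 FPKM in wild type (-0.94), just under 2-fold. Pdk3 had 17.8 FPKM in gl/gl, 21.2 FPKM in CD2-Ostm1 gl/gl and 22.9 FPKM in wild type. Pdk2 had 6.24 FPKM in gl/gl, 7.62 FPKM in CD2-Ostm1 gl/gl and 7.44 FPKM in wild type. The kinase sum was 45.3 FPKM in gl/gl, 61.9 FPKM in CD2-Ostm1 gl/gl and 67.0 FPKM in wild type, of which Pdk4 gave 5.91% in gl/gl. Pdha1, the E1 alpha subunit of the enzyme itself, had 61.1 FPKM in gl/gl, 76.1 FPKM in CD2-Ostm1 gl/gl and 89.0 FPKM in wild type. None of the 10 other measured genes of this complex and of pyruvate entry differed by 2-fold in any comparison, and their median in gl/gl against wild type was -0.34.

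Among the pentose phosphate members, the NADPH-forming enzymes G6pdx and Pgd stood apart from the rest. G6pdx, the rate-limiting first enzyme of the oxidative arm, had 49.6 FPKM in gl/gl, 11.1 FPKM in CD2-Ostm1 gl/gl and 13.9 FPKM in wild type, a difference of 1.76 between gl/gl and wild type (entry on chromosome X, 74393291 to 74453778, mm10). Pgd, the second NADPH-forming enzyme, had 112 FPKM in gl/gl, 41.3 FPKM in CD2-Ostm1 gl/gl and 40.6 FPKM in wild type (1.44). Pgls, which acts between them, was level at 93.8 FPKM in gl/gl, 94.7 FPKM in CD2-Ostm1 gl/gl and 97.9 FPKM in wild type. In the non-oxidative arm no gene reached 2-fold. Taldo1, transaldolase, had 197 FPKM in gl/gl, 125 FPKM in CD2-Ostm1 gl/gl and 176 FPKM in wild type. Tkt, transketolase, had 119 FPKM in gl/gl, 111 FPKM in CD2-Ostm1 gl/gl and 139.9 FPKM in wild type. Rpia, the ribose phosphate isomerase, had 25.1 FPKM in gl/gl, 25.8 FPKM in CD2-Ostm1 gl/gl and 33.8 FPKM in wild type. Rpe, the epimerase, had 23.9 FPKM in gl/gl, 21.7 FPKM in CD2-Ostm1 gl/gl and 22.7 FPKM in wild type.

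G6pdx lies on the X chromosome, as do Pgk1, Pdha1, Pdk3 and Pfkfb1. Those 4 differed by -0.61, -0.53, -0.34 and 0.09 between gl/gl and wild type, and the median of 399 measured X-linked genes was -0.20, against -0.03 for 12445 autosomal genes. Ikbkg, which overlaps the entry position of G6pdx, had 16.1, 15.1 and 14.04 FPKM in gl/gl, CD2-Ostm1 gl/gl and wild type. Of 7 other measured pentose phosphate genes, none differed by 2-fold in any comparison, with a median of 0.11 in gl/gl against wild type. Prps1 and Prps2, both X-linked, which turn ribose phosphate into the precursor of nucleotides, had 16.9 and 29.8 FPKM in gl/gl, 26.2 and 44.5 FPKM in CD2-Ostm1 gl/gl, and 28.7 and 54.3 FPKM in wild type.

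Among the 6 glycogen members, 1 of the phosphorylases differed by more than 2-fold in gl/gl and no other gene did. Pygl, the liver-type glycogen phosphorylase (chromosome 12, 70190815 to 70227683, mm10), had 101 FPKM in gl/gl, 9.69 FPKM in CD2-Ostm1 gl/gl and 10.9 FPKM in wild type, a difference of 3.10 between gl/gl and wild type. Pygb, the brain-type isoform, had 28.5 FPKM in gl/gl, 25.6 FPKM in CD2-Ostm1 gl/gl and 33.6 FPKM in wild type. Pygl was thereby the leading isoform in gl/gl with 78.1% of their sum, against 27.4% in CD2-Ostm1 gl/gl and 24.6% in wild type, where Pygb led. Pygm, the muscle-type isoform and no member, had 1.11 FPKM in gl/gl, 5.85 FPKM in CD2-Ostm1 gl/gl and 7.06 FPKM in wild type, lower in gl/gl by 2-fold or more (-1.93). Gys1, glycogen synthase, had only 8.08 FPKM in gl/gl, 6.02 FPKM in CD2-Ostm1 gl/gl and 7.02 FPKM in wild type.

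Gbe1, the branching enzyme, had 15.5 FPKM in gl/gl, 13.8 FPKM in CD2-Ostm1 gl/gl and 14.8 FPKM in wild type. Ugp2, which makes UDP-glucose for glycogen, had 25.3 FPKM in gl/gl, 19.0 FPKM in CD2-Ostm1 gl/gl and 20.2 FPKM in wild type. Pgm2, a phosphoglucomutase, had 15.3 FPKM in gl/gl, 12.3 FPKM in CD2-Ostm1 gl/gl and 14.9 FPKM in wild type. Of 20 other measured glycogen genes, 1 was higher and 2 were lower in gl/gl than in wild type (median 0.23), near the 8.16% and 6.15% of all measured genes. The higher one was Ppp1r3d, a glycogen-targeting subunit of protein phosphatase, with 8.22 FPKM in gl/gl, 0.782 FPKM in CD2-Ostm1 gl/gl and 0.643 FPKM in wild type, and the lower ones were Pygm and Epm2a, the laforin gene, with 1.69 FPKM in gl/gl, 4.16 FPKM in CD2-Ostm1 gl/gl and 5.07 FPKM in wild type.

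Genes that move glucose and lactate across membranes showed isoform differences as well. Of 10 measured genes on the transport list, 4 were at least 2-fold higher and 2 lower in gl/gl than in wild type (median 0.41). That list also held Bsg (-0.40) and G6pc3 (-0.05), which are not transporters themselves. The shares over all measured genes were 8.16% and 6.15%. Slc16a3, the lactate exporter MCT4, had 24.9 FPKM in gl/gl, 5.17 FPKM in CD2-Ostm1 gl/gl and 3.80 FPKM in wild type. Slc16a1, the transporter MCT1, had 11.7 FPKM in gl/gl, 25.5 FPKM in CD2-Ostm1 gl/gl and 26.9 FPKM in wild type. Slc16a3 gave 65.5% of the sum of Slc16a1, Slc16a3 and Slc16a7 in gl/gl, 14.7% in CD2-Ostm1 gl/gl and 10.9% in wild type. Slc2a3, the glucose transporter GLUT3, had 55.3 FPKM in gl/gl, 19.96 FPKM in CD2-Ostm1 gl/gl and 19.4 FPKM in wild type (1.46). Slc2a1, GLUT1, had 22.7 FPKM in gl/gl, 14.7 FPKM in CD2-Ostm1 gl/gl and 14.8 FPKM in wild type (0.59). The other higher genes were Slc2a6 (1.73) and Slc2a8 (1.34), and the other lower one was Slc16a7 (-1.09).

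Among 8 other measured genes of glycolysis, 2 were higher in gl/gl than in wild type and none was lower (median 0.22). Over all measured genes, 8.16% were higher and 6.15% lower. Adpgk, a kinase that phosphorylates glucose with ADP, had 106 FPKM in gl/gl, 21.5 FPKM in CD2-Ostm1 gl/gl and 27.3 FPKM in wild type (1.91). It thus exceeded Hk1 in gl/gl and not in the other libraries. Pgam2, the muscle-type mutase, had 7.65 FPKM in gl/gl, 3.99 FPKM in CD2-Ostm1 gl/gl and 2.69 FPKM in wild type (1.23).

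Marker lists of cell types were also compared between gl/gl and wild type, and they did not all shift alike. Granulocyte markers had a median difference of 6.14 between gl/gl and wild type, with Retnlg, S100a8, Lcn2 and Mmp8 leading, and none of the 16 was at 0 in any library. The list's 4 genes of primary granules, which form in early granulocyte precursors, were split. Elane and Prtn3, which share an entry position, were higher (2.46 and 2.35), and the 2 lower genes of the list were Mpo and Ctsg (-3.84 and -1.20). Mpo had 9.71 FPKM in gl/gl, 179.9 FPKM in CD2-Ostm1 gl/gl and 152 FPKM in wild type. Monocyte and macrophage markers were higher for 11 of 13 measured genes and lower for none (median 1.63), with sums of 1392, 150.1 and 215 FPKM in gl/gl, CD2-Ostm1 gl/gl and wild type. Early progenitor markers were lower for 12 of 13 (median -2.65), with sums of 109 FPKM in gl/gl, 697 FPKM in CD2-Ostm1 gl/gl and 702 FPKM in wild type. Replication and S phase genes were lower for 12 of 16 (median -1.37), with sums of 410.3 FPKM in gl/gl, 933 FPKM in CD2-Ostm1 gl/gl and 1024 FPKM in wild type. The part of cell composition in the enzyme differences was not tested, and in bulk RNA fewer cells of a type and less RNA per cell cannot be told apart. T lineage markers had 4 of 15 lower and a median of 0.01. Dendritic cell markers had 1 of 10 higher and 1 lower (median 0.03), near the shares over all measured genes. The lower one, Flt3 (-1.12), also stands on the early progenitor list. Mast cell and basophil markers had 1 of 8 higher and 6 lower (median -3.58), and erythroid markers 2 of 3 lower (median -1.22).

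**Figure D3:**
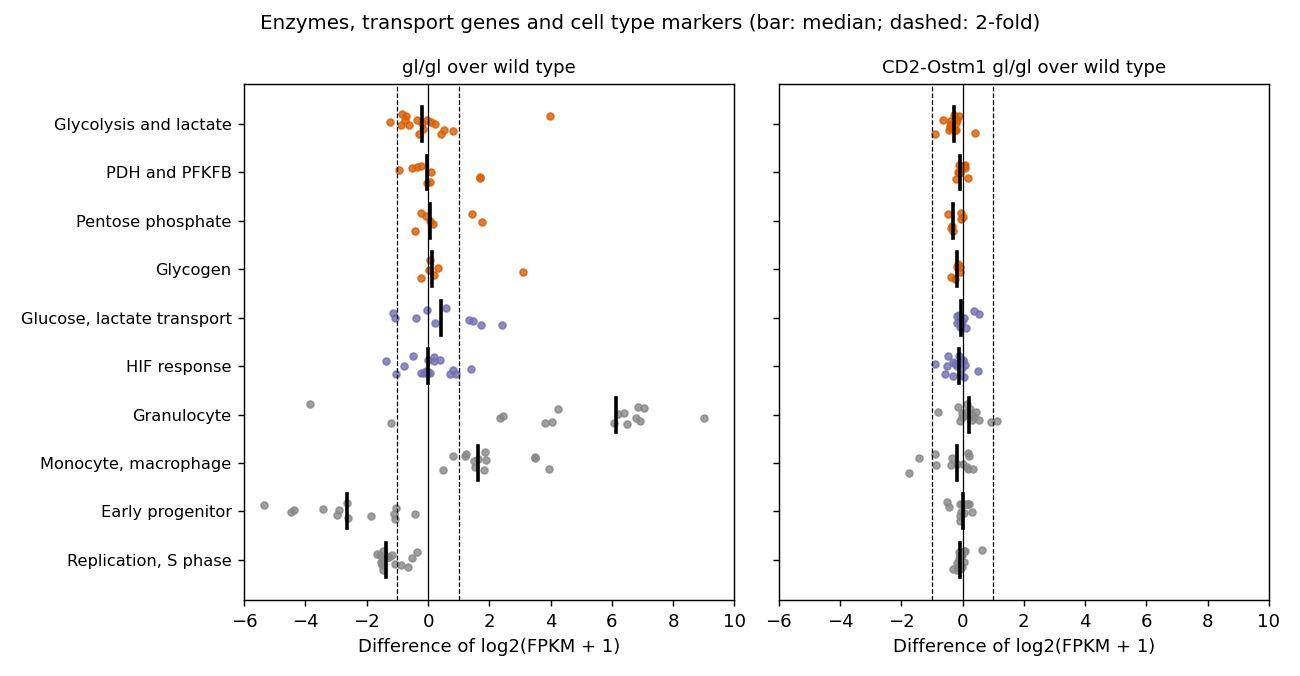
Difference of log2(FPKM + 1) for enzymes by pathway (orange), transport and hypoxia genes (purple) and cell markers (grey), with gl/gl over wild type on the left and CD2-Ostm1 gl/gl over wild type on the right. Each point is a measured gene, black bars are medians, and dashed lines mark 2-fold; granulocyte markers have a median of 6.14 on the left and 0.19 on the right.

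Few genes of any kind differed by 2-fold between CD2-Ostm1 gl/gl and wild type. None of the 39 members was 2-fold higher or lower, against 1.34% and 1.67% of all measured genes. By this count the members did not stand out from other genes. The differences ran from -0.91 for Aldoc to 0.39 for Eno2, which were both low transcripts. The 6 members that were higher in gl/gl lay between -0.30 (G6pdx) and 0.09 (Pfkfb4) of wild type here. Only Pfkp and Aldoc were at least 1.5-fold lower, 2 of 39 against 4.26% of all measured genes.

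Small differences nevertheless leaned one way. In CD2-Ostm1 gl/gl, 33 of 39 members were below wild type, among 7094 of 12849 measured genes (55.2%), and the median was -0.22 over the members and -0.04 over all measured genes. After rescaling the libraries to an equal upper quartile, 31 of 39 members and 5925 of 12849 genes were below wild type, and the median of the members was -0.15. With scaling by gene ratios, 33 of 39 members and 6578 of 12849 genes were below. By pathway the medians were -0.27 for 17 glycolytic genes, -0.30 for 7 pentose phosphate genes, -0.18 for 6 glycogen genes and -0.07 for 9 genes of PFKFB and pyruvate dehydrogenase control. Pkm, Ldha and Aldoa, among the most abundant, differed by -0.37, -0.37 and -0.42. Granulocyte and early progenitor markers had medians of 0.19 and 0.00, while dendritic cell markers had 6 of 10 lower and 1 higher (median -1.43, sums of 336 FPKM in CD2-Ostm1 gl/gl and 1002 FPKM in wild type) and mast cell and basophil markers 5 of 8 lower (median -2.19). T lineage markers had none of 15 beyond 2-fold but a median of -0.31, with sums of 939.7 FPKM in CD2-Ostm1 gl/gl and 1182 FPKM in wild type. Monocyte and macrophage markers had 2 of 13 lower (median -0.17, sums of 150.1 FPKM in CD2-Ostm1 gl/gl and 215 FPKM in wild type), erythroid markers 2 of 3 lower, and replication genes none of 16 beyond 2-fold (median -0.09). Whether those cells had a part in the lean was not tested.

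**Figure D4:**
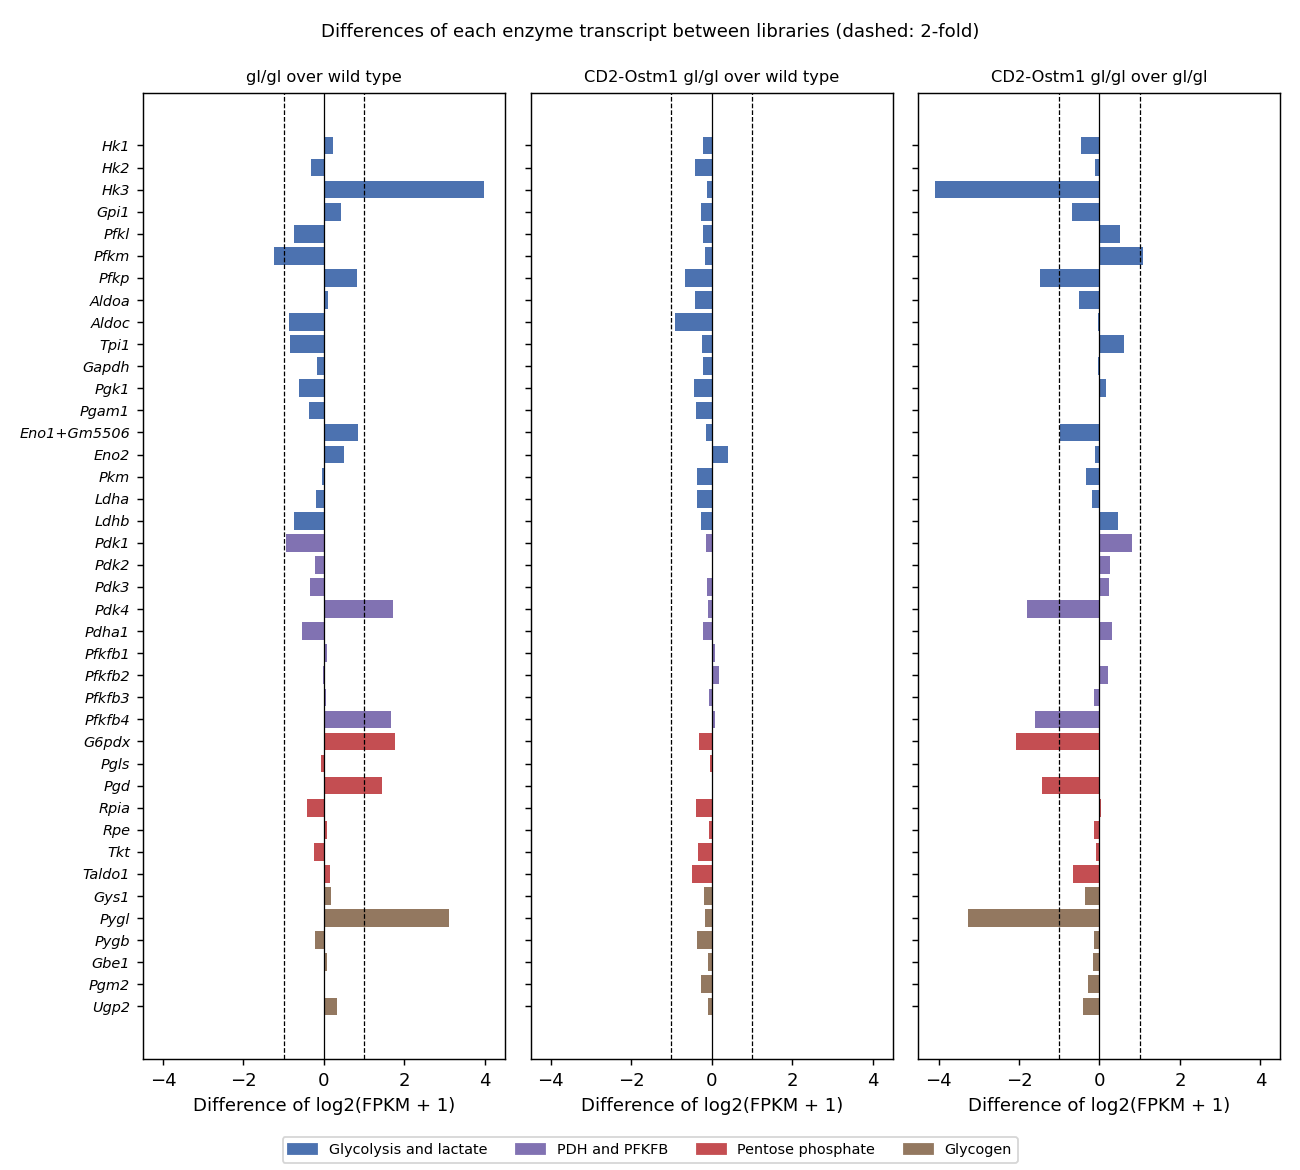
Difference of log2(FPKM + 1) for each enzyme in 3 comparisons: gl/gl over wild type, CD2-Ostm1 gl/gl over wild type, and CD2-Ostm1 gl/gl over gl/gl, coloured by pathway, with dashed lines at 2-fold. Hk3 (3.98) and Pygl (3.10) lead the left panel, no bar of the middle panel reaches 2-fold, and Hk3 (-4.09) and Pygl (-3.26) lead the right panel.

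Mice with and without the transgene, both lacking the normal Ostm1 gene, were set beside each other last. Each of these libraries also enters a comparison above, so the 3 sets of values are not independent. Of 39 members 7 were lower with the transgene, against 9.82% of all measured genes, and 1 was higher, against 6.47%. Hk3 had 0.507 FPKM in CD2-Ostm1 gl/gl and 24.7 FPKM in gl/gl (-4.09). Pygl had 9.69 FPKM in CD2-Ostm1 gl/gl and 101 FPKM in gl/gl (-3.26). G6pdx had 11.1 FPKM in CD2-Ostm1 gl/gl and 49.6 FPKM in gl/gl (-2.07). Pdk4 (-1.81), Pfkfb4 (-1.59), Pfkp (-1.48) and Pgd (-1.42) were the others. Pfkp passed 2-fold only here, since it was above wild type in gl/gl and below it in CD2-Ostm1 gl/gl. The joint Eno1 entry differed by -0.99, just inside 2-fold.

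Pfkm was the 1 higher member, with 12.9 FPKM in CD2-Ostm1 gl/gl and 5.58 FPKM in gl/gl (1.08), and Pdk1 came next with 33.0 FPKM in CD2-Ostm1 gl/gl and 18.5 FPKM in gl/gl (0.80). The median was -0.13 over the members and 0.02 over all measured genes. Transport genes had 2 higher, Slc16a1 (1.06) and Slc16a7 (1.20), and 4 lower, led by Slc16a3 (-2.07). The 20 measured glycogen genes outside the members had 1 higher, Pygm (1.70), and 2 lower, Ppp1r3d (-2.37) and Pgm5 (-1.05). These glycogen counts were near the shares over all measured genes. The 8 other measured glycolytic genes had 1 lower, Adpgk (-2.24). Beside these values, granulocyte markers had 14 of 16 lower and 1 higher (median -5.98), and early progenitor markers 11 of 13 higher (median 2.67). Monocyte and macrophage markers had 12 of 13 lower (median -1.89), dendritic cell markers 5 of 10 lower and 1 higher (median -1.06), and replication genes 11 of 16 higher (median 1.34). The higher dendritic gene was Flt3 (1.04), which also stands on the early progenitor list. T lineage markers had 4 of 15 higher and 2 lower (median -0.32), and mast cell and basophil markers 3 of 8 higher and 1 lower (median 0.50).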

How the data were processed

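The authors deposited 1 table of expression values with a column for each of 3 pooled libraries, matched to its sample by name. Per the submitters' processing notes, TopHat2 2.0.10, Cuffdiff 2.2.1 and build mm10 were used. How libraries were scaled, which annotation was taken and whether strand was used were not stated there. Because Cuffdiff writes FPKM, the deposited values were taken as FPKM, although the header names no unit. Of 23352 lines, 1 was empty, 3 held a cell that was no number, and 23348 were used, 98 of them joint entries.

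Differences are of log2(FPKM + 1), which understates the change of low genes, and the threshold was 2-fold. Isoform shares of members are percents of the summed FPKM of a step's members, and FPKM is per transcript length. Isoforms outside the members do not enter these sums. With 1 library per genotype no test was possible. Table starts count from 0 and are given here counted from 1. Fragments were estimated from the lowest values of 3298 single-transcript genes, taking fragments of 200 bases and a member's longest coding transcript in GENCODE vM21. These estimates are rough and cover counting error only. A position in the table can span a neighbouring gene. Members, the 6 pathway lists and the 9 marker lists were chosen with earlier results of these data known. Every member is named, and other pathway genes at 2-fold and 5 FPKM or more. Slc2a1, Slc16a7, Pgm1, Pgm5, Prps1, Prps2, Car9, Hif1a, the neighbouring genes, Cd44, Il2ra, Kit and Cd3e were named after their values were seen. So were Bsg, G6pc3, Eno3, Flt3 and the primary granule genes Elane, Prtn3, Mpo and Ctsg. Counting was tested on simulated data. Python 3.11.15, pandas 2.3.3, numpy 2.4.6 and matplotlib 3.10.9 were used.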

Additional observations from a re-analysis of the deposited data

How the results depend on the processing

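Counts of members were recomputed with pseudocounts of 0.1 and 5, no filter or one of 5 FPKM, 2 rescalings, thresholds of 1.5-fold and 4-fold, without X-linked members and, added after seeing the data, with the joint Eno1 entry. For gl/gl against wild type, the lower count of 1 became 2 with a pseudocount of 0.1, 0 with 5, 7 at 1.5-fold and 0 at 4-fold, and the higher count of 6 became 2 at 4-fold (Hk3 and Pygl). For CD2-Ostm1 gl/gl against wild type, the lower count of 0 became 1 (Aldoc, -1.42) with a pseudocount of 0.1 and 2 at 1.5-fold. For CD2-Ostm1 gl/gl against gl/gl, the higher count of 1 became 0 with a pseudocount of 5, 3 at 1.5-fold and 0 at 4-fold, and the lower count of 7 became 3 at 4-fold. The other counts stayed within 1.5 times, and every median moved by less than 0.1. Of 120 single differences, 4 dropped under 2-fold with a pseudocount of 5 (those of Pfkm and Pdk4), 3 passed it with 0.1, and 1, the joint Eno1 entry in CD2-Ostm1 gl/gl against gl/gl, passed it when libraries were scaled by median gene ratios (-1.01). With 1 FPKM added to every isoform, 12 of 66 shares moved by over 1.5 times, all of low isoforms. No paired analysis was possible because each genotype has 1 library.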

Other observations

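Genes of the response to hypoxia, which include several glycolytic enzymes, were followed on a list without members. Of 17 measured genes, 1 was at least 2-fold higher and 2 were lower in gl/gl than in wild type (median 0.01). Over all measured genes the shares were 8.16% higher and 6.15% lower, so these counts were near them. Whether this response had a part in the enzyme differences was not tested. Ddit4, an inhibitor of mTORC1 that also responds to glucocorticoids, had 139 FPKM in gl/gl, 54.4 FPKM in CD2-Ostm1 gl/gl and 52.2 FPKM in wild type. Ndrg1 had 6.88 FPKM in gl/gl, 13.7 FPKM in CD2-Ostm1 gl/gl and 19.5 FPKM in wild type and Car9, a carbonic anhydrase, 0.809 FPKM in gl/gl, 2.95 FPKM in CD2-Ostm1 gl/gl and 2.71 FPKM in wild type. Hif1a itself had 35.3 FPKM in gl/gl, 28.1 FPKM in CD2-Ostm1 gl/gl and 33.4 FPKM in wild type. In CD2-Ostm1 gl/gl against wild type no gene of the list reached 2-fold (median -0.12). There, 1.34% of all measured genes were higher and 1.67% lower. Against gl/gl, 1 of the 17 was higher, Car9 (1.13), and 2 were lower, Epas1 (-1.71) and Ddit4 (-1.34). The shares over all measured genes were 6.47% higher and 9.82% lower in that comparison.

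The entry positions of 4 further members span a neighbouring coding gene. Spsb2, beside Tpi1, had 9.55 FPKM in gl/gl, 3.97 FPKM in CD2-Ostm1 gl/gl and 4.47 FPKM in wild type. Map3k15, beside Pdha1, had 2.18 FPKM in gl/gl, 0.891 FPKM in CD2-Ostm1 gl/gl and 0.490 FPKM in wild type. Yod1, beside Pfkfb2, had 8.68 FPKM in gl/gl, 8.09 FPKM in CD2-Ostm1 gl/gl and 6.07 FPKM in wild type. Kansl1l, beside Rpe, had 8.07 FPKM in gl/gl, 21.0 FPKM in CD2-Ostm1 gl/gl and 17.9 FPKM in wild type. The table's Pgm1 lies on another chromosome than its Pgm2 and had 18.4 FPKM in gl/gl, 14.3 FPKM in CD2-Ostm1 gl/gl and 17.3 FPKM in wild type.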
